A study of Mus musculus with 6 samples.

Results

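Hyaluronan is a large unsulfated sugar polymer of the extracellular matrix that binds water and fills the space between the cells of the skin, in the dermis and between the keratinocytes of the epidermis. It is assembled at the plasma membrane by the synthases HAS1, HAS2 and HAS3 from nucleotide sugars, cut at the cell surface and in the lysosome by hyaluronidases, and bound by receptors such as CD44 and LYVE1. The 8 genes described here cover these roles. They are the synthases Has1, Has2 and Has3, the breakdown genes Hyal1, Hyal2 and Tmem2 (the symbol Cemip2 in newer annotation), and the receptors Cd44 and Lyve1. They were chosen by name, all 8 were found by Ensembl identifier among the 26579 genes of the count table, and all 8 passed the filter on low counts.

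RNA was measured by sequencing of whole dorsal neck skin biopsies from 3 female wild type mice (WT) and 3 female YAP2-5SA-∆C transgenic littermates (TG), 1 library per mouse, all at postnatal day 33 (P33). The transgene encodes a mildly activated form of YAP, a transcriptional cofactor restrained by the Hippo kinases, and is overexpressed in basal keratinocytes. The TG mice were taken at the first externally visible signs of their phenotype, so the transgene and whatever accompanies early skin disease cannot be told apart. In a whole biopsy, fewer cells of a type and less RNA per cell cannot be told apart either.

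The libraries held 11225705 to 19505036 counts, WT3 being the shallowest. Levels are given as CPM, counts scaled to the size of each library by TMM, with SD over n = 3 mice per genotype. The comparison of TG with WT used edgeR's quasi-likelihood test with Benjamini-Hochberg adjustment (FDR) over all 15102 genes that passed the filter, and 288 of them, 1.91%, were called at an FDR under 0.05. Yap1 itself was at 131 ± 9.47 CPM in WT and 136 ± 7.32 CPM in TG, and whether transgene reads count toward it is not given in the sources used here. TG2 stood apart in its hair genes, since the summed level of 8 hair shaft and inner root sheath markers was 1380 CPM there, 6754 and 8587 CPM in the other TG libraries and 12749 to 15985 CPM in WT. Has2, Has3, Hyal1, Cd44 and Mmp9 are therefore also given without TG2.

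None of the 8 genes passed the test, against a background of 1.91% of all tested genes called. At an unadjusted p under 0.05 the count was 2, Has2 and Has3, beside 26.3% of all tested genes. The same 2 genes were higher in every TG library than in every WT library, which held for 15.5% of all tested genes. No member was lower in every TG library, which held for 18.2% of all tested genes, and the other 6 members overlapped between the genotypes. The fitted change was positive for 4 members and negative for 4. Its median over the members was 0.04 on the log2 scale, beside -0.01 over all tested genes.

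**Figure D1:**
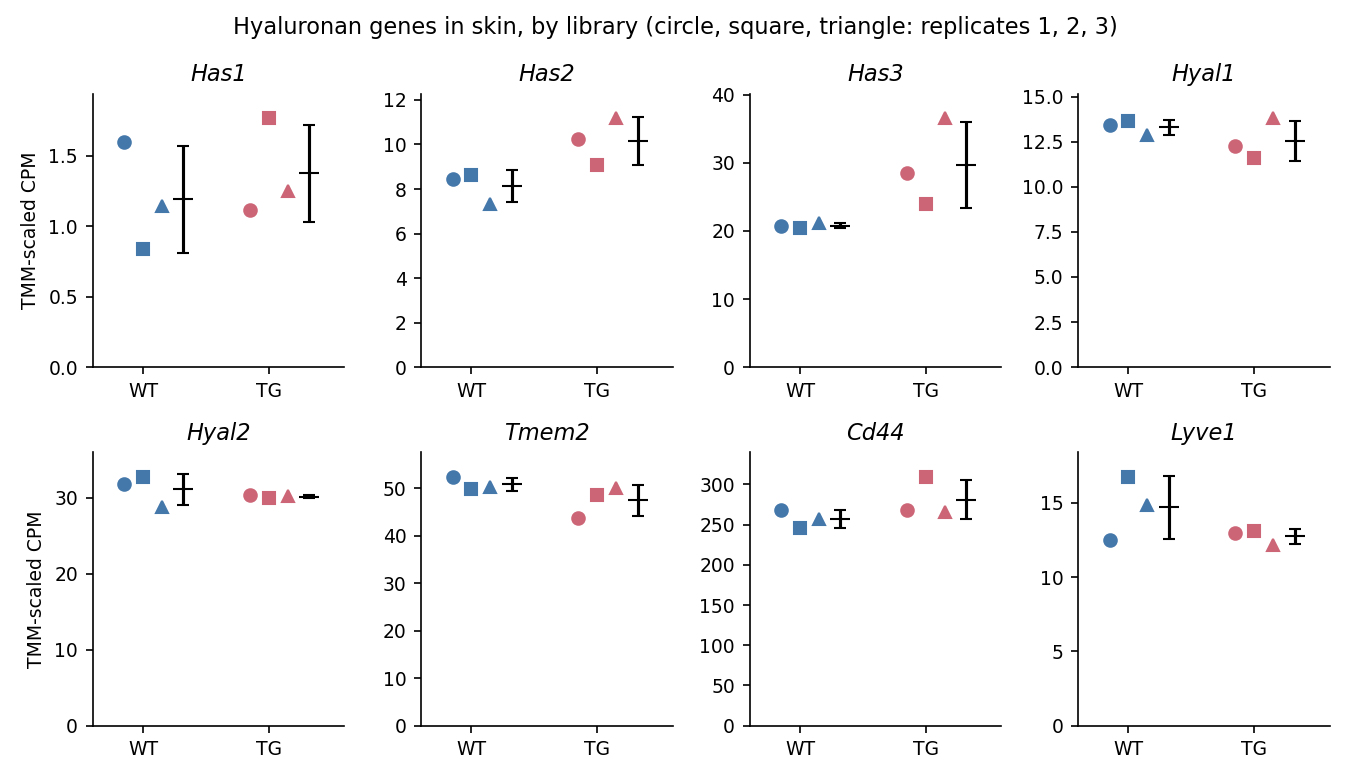
TMM-scaled CPM (vertical axes, starting at 0) of the 8 hyaluronan genes in each WT (blue) and TG (red) library, with circles, squares and triangles for replicates 1, 2 and 3 and black bars for the mean ± SD of 3 mice. Only Has2 and Has3 have all TG points above all WT points, and the 3 WT points of Has3 lie within 20.4 to 21.2 CPM while its TG points run from 24.0 to 36.5 CPM.

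The synthases are multi-pass membrane enzymes with closely related sequences. Over aligned coding bases, Has2 and Has3 were 68.8% identical, Has1 and Has3 67.9%, and Has1 and Has2 62.9%. The window below is shown because it is the stretch of 30 coding bases most alike across all 3 genes. Capitals mark the 24 bases identical in all 3, lower case the bases that differ in at least 1.
Has1, coding bases 1155 to 1184: CAAaTCtTACTTcCGaGAgTGGCTaTACAA
Has2, coding bases 1065 to 1094: CAAgTCcTACTTcCGaGAgTGGCTgTACAA
Has3, coding bases 1077 to 1106: CAAgTCtTACTTtCGgGAaTGGCTcTACAA

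Bases are numbered from the first base of the start codon in the GENCODE M21 coding sequences. The longest run shared letter for letter was 23 bases between Has2 and Has3 and 17 bases in each of the other pairs, well under the 75-base read length.

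Has3 lies on the plus strand of chromosome 8 at 106870242 to 106884566 (GRCm38). Its level was 20.7, 20.4 and 21.2 CPM in WT1, WT2 and WT3, from 377, 390 and 223 counts. In TG1, TG2 and TG3 it was 28.5, 24.0 and 36.5 CPM, from 513, 408 and 585 counts. The WT libraries were nearly level, the TG libraries were spread, and the lowest TG library was above the highest WT library.

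The Has3 means were 20.8 ± 0.406 CPM in WT and 29.7 ± 6.33 CPM in TG. This is a fitted log2 fold change of 0.51 (SE 0.15, 95% confidence interval 0.17 to 0.86), or 1.43-fold, with an FDR of 0.0887 by edgeR's quasi-likelihood test. The call depended on the test. The adjusted p was 0.0468 by edgeR's likelihood-ratio test, 0.0241 by DESeq2 and 0.105 by voom, tests that called 10.4%, 10.5% and 1.65% of all genes.

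It also depended on the library set. Without TG2, the lowest TG library, the log2 fold change of Has3 was 0.66 and the quasi-likelihood FDR 0.0256. Without TG3, the highest, these were 0.34 and 0.239. Over the 6 fits that each left out 1 library, the likelihood-ratio test called Has3 in 1, that without TG2, with adjusted p from 0.000864 to 0.305. Has3 shares 352 exon bases with Chtf8 on the opposite strand, which was at 80.6 CPM in WT and 74.4 CPM in TG with a log2 fold change of -0.12 (FDR 0.353, edgeR's quasi-likelihood test). The strand setting of the counting is not given in the sources used here.

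Has2 lies on the minus strand of chromosome 15 at 56665627 to 56694539. HAS2 makes long hyaluronan chains and is the synthase best known from dermal fibroblasts. Its level was 8.47, 8.63 and 7.33 CPM in WT1 to WT3 and 10.2, 9.06 and 11.2 CPM in TG1 to TG3. All TG libraries were above all WT libraries, with TG2 closest to WT.

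The Has2 means were 8.14 ± 0.712 CPM in WT and 10.2 ± 1.06 CPM in TG, a log2 fold change of 0.31 (SE 0.12, 95% confidence interval 0.03 to 0.60) that did not pass edgeR's quasi-likelihood test (FDR 0.157). When single libraries were left out it stayed between 0.24, without TG3, and 0.40, without TG2. The noncoding antisense gene Has2os, which shares 182 exon bases with Has2, had 9 to 24 counts per library and a log2 fold change of 0.12 (FDR 0.760, edgeR's quasi-likelihood test).

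Has1, on the minus strand of chromosome 17 at 17843323 to 17855205, was the scarcest member. Its counts were 29, 16 and 12 in WT1 to WT3 and 20, 30 and 20 in TG1 to TG3. The level was 1.59, 0.837 and 1.14 CPM in WT and 1.11, 1.77 and 1.25 CPM in TG. The genotypes overlapped fully, with the highest and the second highest values in TG2 and WT1.

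The counts were low, and the libraries differed in depth. The exact 95% Poisson interval for 12 counts runs from 6.20 to 21, and that for 30 counts from 20.2 to 42.8. These intervals cover counting error only. The log2 fold change of Has1 was 0.20 (SE 0.32, 95% confidence interval -0.55 to 0.95, FDR 0.716 by edgeR's quasi-likelihood test), and it was between -0.02 and 0.51 when single libraries were left out. The share of counting error and of spread between mice in that interval was not tested.

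**Figure D2:**
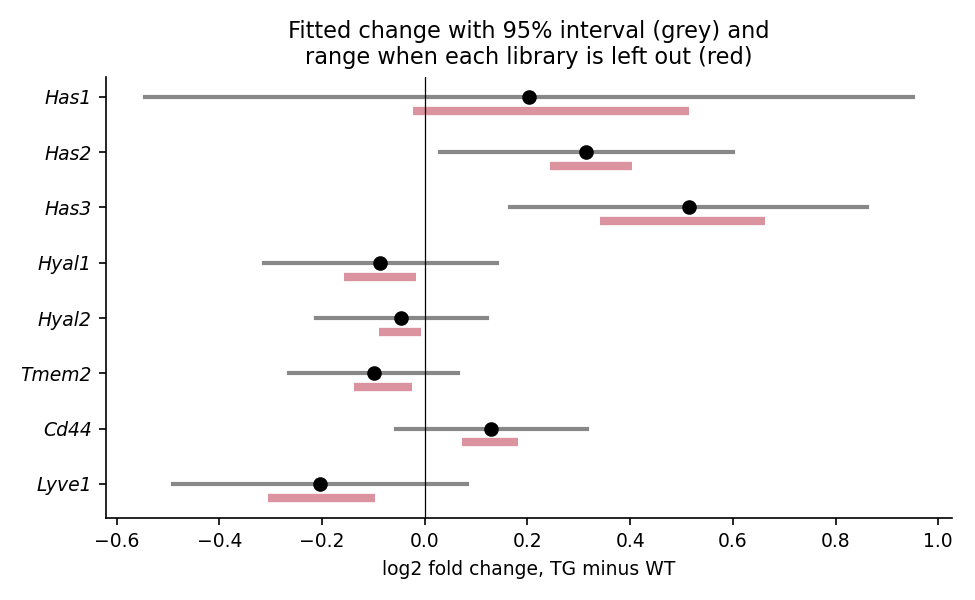
Fitted log2 fold change of TG against WT for each member (black points), with its 95% confidence interval (grey) and the range of the fitted values when each of the 6 libraries is left out in turn (red). The intervals of Has2 and Has3 lie above 0 before adjustment over all genes, those of the other 6 genes span 0, and only the red range of Has1 crosses 0.

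Levels of different genes can be compared only per length, so the CPM were divided by the kilobases (kb) of annotated exon of each gene. On this scale Has3 made up most of the synthase transcripts in every library, 59.9% ± 2.45 of the sum in WT and 62.9% ± 3.24 in TG. Has2 made up 35.3% ± 2.53 and 32.8% ± 1.96, and Has1 4.83% ± 1.44 and 4.29% ± 1.67. These shares overlapped between the genotypes for all 3 synthases.

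The summed synthase level was 5.60, 5.42 and 5.31 CPM per kb in WT1 to WT3 and 7.13, 6.29 and 8.64 CPM per kb in TG1 to TG3. The lowest TG sum was above the highest WT sum. The ratio of Has3 to Has2 per kb was 1.71 ± 0.190 in WT and 1.93 ± 0.216 in TG, with overlapping libraries.

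**Figure D3:**
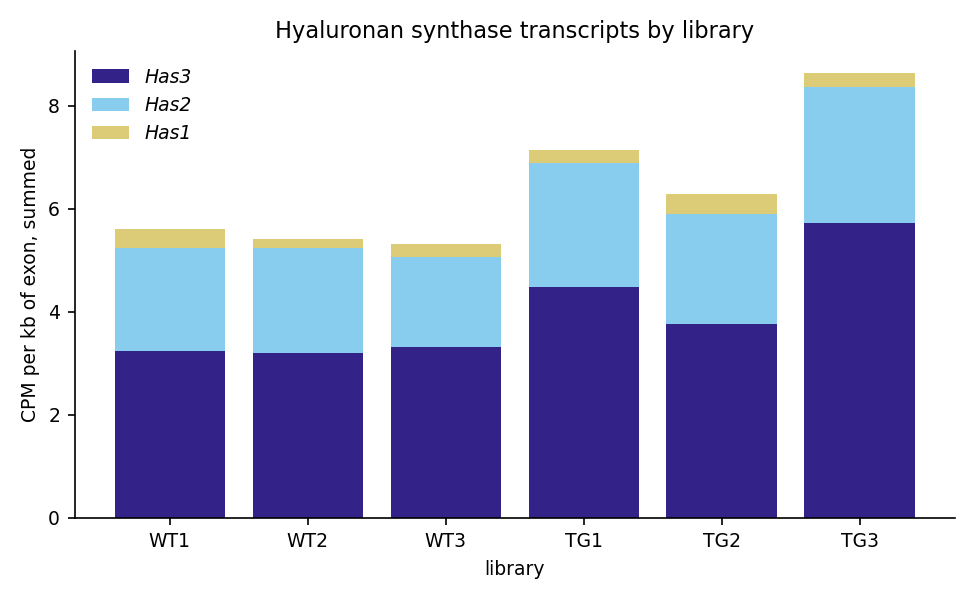
Level of the synthases in CPM per kb of exon (vertical axis, starting at 0), stacked for each library from Has3 at the bottom through Has2 to Has1 at the top. Has3 is the largest block in all 6 libraries, and the stacks reach 5.31 to 5.60 in WT and 6.29 to 8.64 in TG.

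The breakdown genes differed little between the genotypes. HYAL2 is a surface-anchored enzyme that cuts long chains, HYAL1 a lysosomal enzyme that degrades the fragments, and TMEM2 a transmembrane protein described as a surface hyaluronidase. All 3 had fitted log2 fold changes between -0.10 and -0.05, none passed edgeR's quasi-likelihood test, and each overlapped between WT and TG.

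Hyal2, on the plus strand of chromosome 9 at 107567945 to 107572779, was at 31.8, 32.8 and 28.8 CPM in WT1 to WT3 and at 30.3, 29.9 and 30.3 CPM in TG1 to TG3. The TG libraries lay close together inside the WT range. The log2 fold change was -0.05 (SE 0.07, 95% confidence interval -0.21 to 0.12, FDR 0.718 by edgeR's quasi-likelihood test), and it was between -0.09, without WT3, and -0.01, without WT2, when single libraries were left out.

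Tmem2, on the plus strand of chromosome 19 at 21778342 to 21858360, was at 52.4, 49.9 and 50.2 CPM in WT1 to WT3 and at 43.8, 48.5 and 50.1 CPM in TG1 to TG3. TG1 was the lowest library, and TG3 lay among the WT values. The log2 fold change was -0.10 (SE 0.07, 95% confidence interval -0.26 to 0.07, FDR 0.401 by edgeR's quasi-likelihood test), and -0.02 without TG1.

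Hyal1 lies beside Hyal2 on chromosome 9, at 107576927 to 107581710 on the plus strand. It was at 13.4, 13.7 and 12.8 CPM in WT1 to WT3 and at 12.2, 11.6 and 13.8 CPM in TG1 to TG3. Both the highest and the lowest value were TG libraries, and its log2 fold change was -0.09 (SE 0.10, 95% confidence interval -0.31 to 0.14, FDR 0.602 by edgeR's quasi-likelihood test). It was -0.02 without TG2 and -0.16 without TG3. Of its 3777 exon bases, 1961 (51.9%) are shared with the same-strand genes Naa80 and Hyal3, so its count is uncertain. Naa80 had a log2 fold change of -0.09 (FDR 0.624, edgeR's quasi-likelihood test).

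Per kb of exon, Hyal2 made up 49.9% ± 1.37 of the 3 breakdown genes in WT and 50.8% ± 1.63 in TG, Tmem2 31.5% ± 1.28 and 30.8% ± 1.42, and Hyal1 18.6% ± 0.243 and 18.4% ± 1.16. Their sum was 18.9 ± 0.770 CPM per kb in WT and 18.1 ± 0.592 CPM per kb in TG. Both the shares and the sums overlapped between the genotypes.

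CD44 is the main hyaluronan receptor of keratinocytes, fibroblasts and leukocytes. Cd44 lies on the minus strand of chromosome 2 at 102811141 to 102901665 and was the most highly expressed member. Its level was 269, 246 and 257 CPM in WT1 to WT3 and 269, 309 and 265 CPM in TG1 to TG3. TG2 was the highest library, while TG1 and TG3 lay inside the WT range.

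The Cd44 means were 257 ± 11.6 CPM in WT and 281 ± 24.6 CPM in TG. The log2 fold change was 0.13 (SE 0.08, 95% confidence interval -0.06 to 0.32, FDR 0.335 by edgeR's quasi-likelihood test), and 0.07 without TG2. Cd44 has 9 annotated transcripts, including variant exons that keratinocytes are known to use, and counts per gene do not tell these apart.

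LYVE1 is a receptor of lymphatic endothelium and of some tissue macrophages. Lyve1, on the minus strand of chromosome 7 at 110850607 to 110863239, was at 12.5, 16.7 and 14.8 CPM in WT1 to WT3 and at 13.0, 13.1 and 12.2 CPM in TG1 to TG3. WT2 and WT3 were above all TG libraries, WT1 lay among them, and the TG libraries were close together. The log2 fold change was -0.20 (SE 0.12, 95% confidence interval -0.49 to 0.08, FDR 0.325 by edgeR's quasi-likelihood test). When single libraries were left out it was between -0.31, without WT1 (FDR 0.143, the same test), and -0.10, without WT2.

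Spread between mice differed among the members. The SD was 1.96% to 32% of the mean in WT, lowest for Has3 and highest for Has1, beside a median of 8.09% over all tested genes. In TG it was 0.662% to 25%, lowest for Hyal2 and highest for Has1, beside a median of 9.29%. Has3 went from the smallest spread of the members in WT to 21.3% of the mean in TG.

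The order of the levels per kb in WT ran from Cd44 (37.9 CPM per kb) through Hyal2 (9.45), Tmem2 (5.97), Lyve1 (5.03), Hyal1 (3.52), Has3 (3.26) and Has2 (1.92) to Has1 (0.264). No neighbours in this order overlapped among the WT libraries. Cd44 was 4.01 times as high as Hyal2 per kb and 144 times as high as Has1. In TG the means per kb were 41.5 for Cd44, 9.16 for Hyal2, 5.57 for Tmem2, 4.37 for Lyve1, 3.32 for Hyal1, 4.65 for Has3, 2.40 for Has2 and 0.304 for Has1.

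Hyal1 and Has3 exchanged places between the genotypes, since Hyal1 was the higher in the 3 WT libraries and Has3 in the 3 TG libraries. In TG the values of Has3 also overlapped those of Lyve1 and Tmem2. The place of Hyal1 rests on the length it is given. Over the exon bases it shares with no other gene, its WT level would be 7.33 CPM per kb, above Tmem2 at 6.03.

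**Figure D4:**
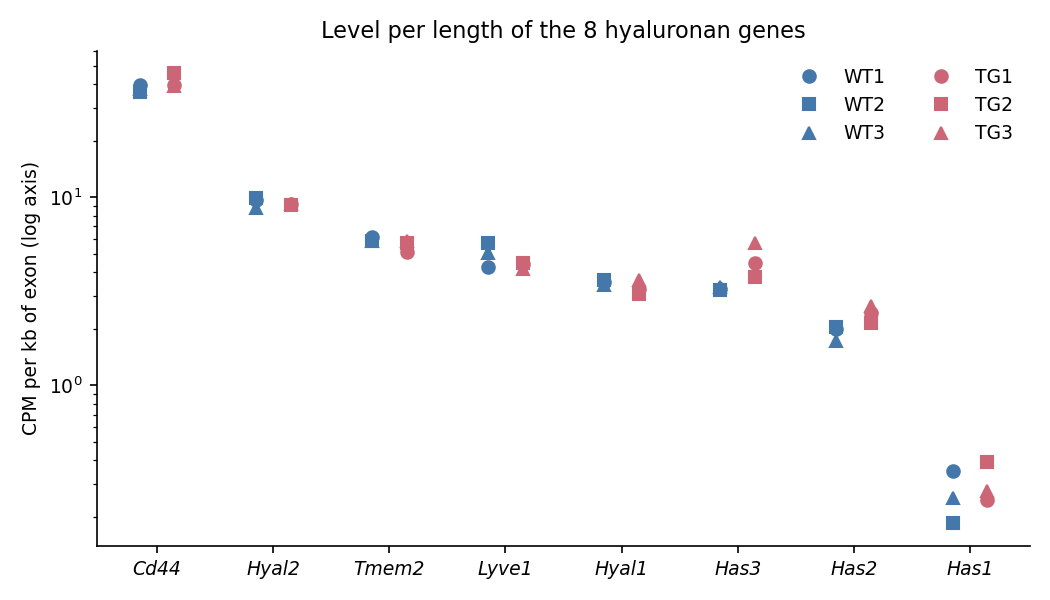
CPM per kb of exon on a log axis for each member, ordered by WT mean, in WT (blue) and TG (red) libraries with a symbol for each replicate. Cd44 lies between 36.2 and 45.7 CPM per kb, Has1 between 0.185 and 0.391, and Has3 is the member whose TG points move past those of its neighbour Hyal1.

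YAP acts with TEAD transcription factors, and RefSeq promoter sequence (GRCm38.p6, 250 bases before to 50 after the start) was at hand for 4 members, Has1, Hyal1, Hyal2 and Cd44. The TEAD letters GGAATG, searched on both strands, were found in 1 of the 4, Hyal2, beside 14.7% of 32851 promoters of the same length. The window is printed because it holds that match, in capitals on the opposite strand, whose first base is at -229 from the RefSeq start. That start lies inside the GENCODE span of Hyal2 given above, which begins further upstream, so the window is within the annotated gene.
Hyal2, chr9:107568922-107568951, plus strand: agcgggaatcccCATTCCaggaggtattca

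The AP-1 letters TGANTCA and the TATA letters TATAAA were in none of the 4, beside 7.81% and 13.6% of all promoters. The GC box letters GGGCGG were in 3 of the 4, Hyal1, Hyal2 and Cd44, beside 35.7%. A match is a string of letters, not a binding site, and binding was not tested. No promoter was at hand for Has2, Has3, Tmem2 and Lyve1.

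Around the 8 genes, 41 further genes of hyaluronan metabolism and binding were examined, of which 30 passed the filter on low counts. Of these 30, 1 (3.33%) rose in TG and none fell, beside 1.44% and 0.464% of all tested genes. The groups did not overlap for 13 of the 30 (43.3%), with 12 higher and 1 lower in TG, beside 33.8% of all tested genes. The median log2 fold change was 0.16, beside -0.01 over all tested genes, and 22 of the 30 had a positive fitted change. An unadjusted p under 0.05 by edgeR's quasi-likelihood test was found for 13 of the 30, beside 26.3% of all tested genes. The same 26.3% stands beside the counts of each list below.

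The gene that rose was Mmp9, a gelatinase that docks on CD44 at the cell surface. It was at 2.75, 3.04 and 4.19 CPM in WT1 to WT3 and at 9.51, 6.59 and 8.30 CPM in TG1 to TG3. Every TG library was well above every WT library, and the log2 fold change was 1.31 (SE 0.21, FDR 0.0413 by edgeR's quasi-likelihood test). Without TG2 the FDR of Mmp9 was 0.0151, and it was 0.0697, 0.186, 0.114, 0.0688 and 0.0906 without WT1, WT2, WT3, TG1 and TG3, with log2 fold changes between 1.19 and 1.498 over these 6 fits. Among the other 7 CD44 partners and sheddases, Adam17, which sheds surface proteins, was at 89.6 ± 3.51 CPM in WT and 107 ± 8.90 CPM in TG (FDR 0.0870, edgeR's quasi-likelihood test). All 8 of these genes were tested, 6 had an unadjusted p under 0.05, beside 26.3% of all tested genes, and 7 had a positive fitted change. The other one, Rdx, for the membrane-cytoskeleton linker radixin, was at 192 ± 2.42 CPM in WT and 169 ± 12.9 CPM in TG, lower in every TG library (log2 fold change -0.18, FDR 0.15, edgeR's quasi-likelihood test).

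None of the 7 genes for the supply of the nucleotide sugars passed the test, 2 had an unadjusted p under 0.05, and 6 had positive fitted changes. Ugdh, which makes the UDP-glucuronic acid that the synthases use, was at 43.5 ± 1.40 CPM in WT and 48.9 ± 2.57 CPM in TG, with no overlap (log2 fold change 0.17, FDR 0.154, edgeR's quasi-likelihood test). Uap1, for the last step to UDP-N-acetylglucosamine, had a log2 fold change of 0.19 (FDR 0.181, edgeR's quasi-likelihood test) with overlapping libraries.

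Of the other breakdown genes, 5 of 7 were tested, none passed, and 1 had an unadjusted p under 0.05. Gusb, the lysosomal beta-glucuronidase, was at 18.2 ± 2.94 CPM in WT and 23.3 ± 0.794 CPM in TG, with no overlap (FDR 0.122, edgeR's quasi-likelihood test). Hyal4, a relative of the hyaluronidases that acts on chondroitin sulfate, was at 7.2 ± 0.634 CPM and 8.53 ± 1.09 CPM, with overlap (FDR 0.276, edgeR's quasi-likelihood test).

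Of 13 genes for hyaluronan-binding matrix proteins, 5 were tested, none passed, and 1 had an unadjusted p under 0.05. Tnfaip6, which encodes TSG-6, a protein that moves heavy chains onto hyaluronan in inflamed tissue, was at 9.67, 7.22 and 9.70 CPM in WT1 to WT3 and at 10.1, 25.4 and 20.1 CPM in TG1 to TG3. TG1 was barely above WT, and the other TG libraries were far above it. The log2 fold change was 1.07 (SE 0.32, FDR 0.0981 by edgeR's quasi-likelihood test), with an adjusted p of 0.00379 by the likelihood-ratio test and 0.00637 by DESeq2. The adjusted p was 0.153 by voom. By the quasi-likelihood test the FDR of Tnfaip6 was 0.174 without TG2, its highest library (log2 fold change 0.79), 0.0481 without TG1, and 0.148 to 0.271 in the other 4 fits that left out 1 library. Vcan, the large proteoglycan versican, was at 248 ± 24.2 CPM in WT and 229 ± 23.1 CPM in TG, with overlap (FDR 0.506, edgeR's quasi-likelihood test).

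Of 6 other receptors, 5 were tested, none passed, and 4 were higher in every TG library than in every WT library, which held for 15.5% of all tested genes. At an unadjusted p under 0.05 the count was 3. Tlr2, an innate immune receptor reported to respond to hyaluronan fragments, was at 4.37 ± 0.0942 CPM in WT and 5.77 ± 0.191 CPM in TG (log2 fold change 0.40, FDR 0.0805, edgeR's quasi-likelihood test). Stab1, a scavenger receptor of macrophages and some endothelium, was at 65.2 ± 6.94 CPM and 81.0 ± 3.85 CPM (log2 fold change 0.31, FDR 0.0854, edgeR's quasi-likelihood test). The likelihood-ratio test called 3 of the 30 genes, Mmp9, Tnfaip6 and Spp1, beside 10.4% of all tested genes. DESeq2 called 6, adding Mmp14, Stab1 and Adam17, beside 10.5% of all tested genes. Spp1, Mmp14 and Rdx are named here after their values were seen.

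**Figure D5:**
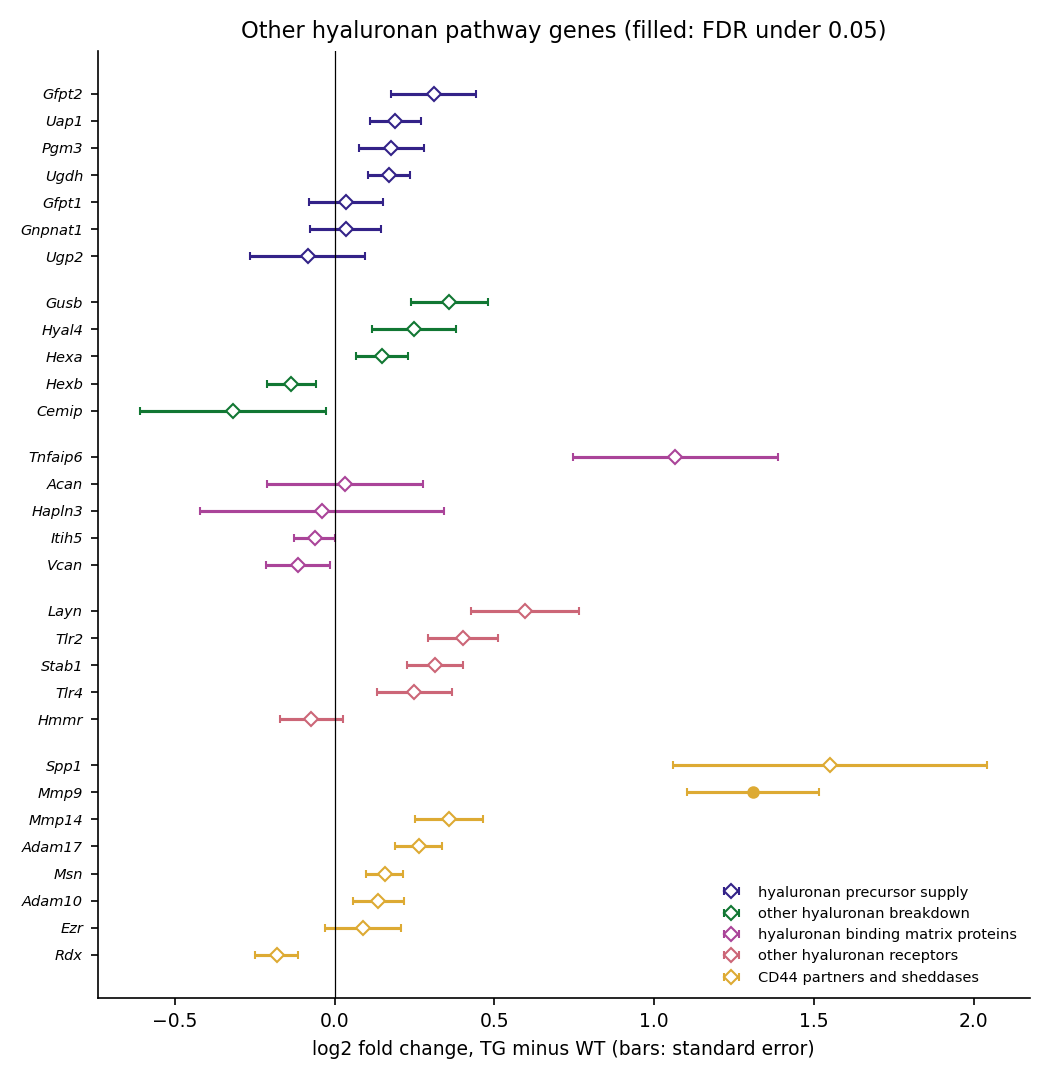
Log2 fold change of TG against WT (points) with its standard error (bars) for the 30 tested genes of the wider hyaluronan pathway, grouped by role, with a filled symbol for an FDR under 0.05. Only Mmp9 is filled, 22 of the 30 points lie above 0, and Spp1 has the largest fitted change with a wide error.

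Markers of the cell types that make or bind hyaluronan are given beside the 8 genes, and their part in the values of these genes was not tested. Marker calls are those of edgeR's quasi-likelihood test unless another test is named. Of all tested genes, this test called 1.44% higher and 0.464% lower in TG, and 26.3% had an unadjusted p under 0.05. The likelihood-ratio test called 10.4% of all tested genes and DESeq2 10.5%. No marker gene tested was at 0 in any library. The summed level of 7 lymphatic endothelial markers ran from 135 to 178 CPM in WT and from 178 to 245 CPM in TG, just overlapping. Sema3d, the highest of them, was at 70.0 ± 9.71 CPM in WT and 84.4 ± 24.6 CPM in TG, with overlap. None of the 7 passed edgeR's quasi-likelihood test (4 at an unadjusted p under 0.05), 2 were called by the likelihood-ratio test and 2 by DESeq2, all 7 had positive fitted changes, and the median log2 fold change was 0.48. The defining markers Prox1 and Flt4 were at 4.02 ± 1.54 and 7.29 ± 1.58 CPM in WT and at 5.76 ± 1.13 and 9.76 ± 1.76 CPM in TG. Both overlapped between the genotypes (FDR 0.314 and 0.229, edgeR's quasi-likelihood test).

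The 10 macrophage markers summed to 435 to 529 CPM in WT and 616 to 691 CPM in TG, with 2 of 10 called higher (4 by the likelihood-ratio test, 6 by DESeq2) and Mrc1 the highest (158 and 230.2 CPM). Set against these sums, Lyve1 was 7.01%, 12.4% and 9.80% of the lymphatic sum in WT1 to WT3 and 6.91%, 5.35% and 6.85% in TG1 to TG3. Every TG value was below every WT value, though WT1 and TG1 nearly met. Against the macrophage sum Lyve1 was 3.02% ± 0.322 in WT and 1.93% ± 0.162 in TG, again with no overlap. Of the 10 macrophage markers, 9 were higher in every TG library, which held for 15.5% of all tested genes. The other, Folr2, was at 17.3 ± 3.86 CPM in WT and 16.9 ± 0.245 CPM in TG, with overlap. Among the 8 blood endothelial markers none was called by edgeR's quasi-likelihood test, the likelihood-ratio test, voom or DESeq2 (3 at an unadjusted p under 0.05), with sums of 126 to 146 CPM in WT and 149 to 177 CPM in TG and Pecam1 the highest.

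For Cd44, the 7 leukocyte markers summed to 119 to 129 CPM in WT and 190 to 208 CPM in TG, with 6 of 7 called higher and Ptprc the highest. The 7 basal keratinocyte markers summed to 3593 to 4358 CPM in WT and 5903 to 7540 CPM in TG, with 1 called higher, Krt14, also the highest (3 by the likelihood-ratio test, 5 by DESeq2). Cd44 was 209% ± 9.99 of the leukocyte sum in WT and 143% ± 18.3 in TG, and 6.54% ± 0.342 and 4.30% ± 0.229 of the basal keratinocyte sum. Neither ratio overlapped between the genotypes, while the level of Cd44 itself did. Of the 7 basal markers, 4 were higher in every TG library, which held for 15.5% of all tested genes. Krt14 was at 1648 ± 19.6 CPM in WT and 3187 ± 300 CPM in TG. Trp63 was at 289 ± 12.3 and 306 ± 17.6 CPM, with overlap. A ratio to such a sum is not a level per cell. The marker calls were lost without WT2, WT3 or TG3, when no gene of the whole table was called, and the leukocyte list had 4 calls without WT1, 1 without TG1 and 6 without TG2. The 2 macrophage calls were lost without WT1 too.

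For the synthases the same ratios overlapped. Has3 was 0.531% ± 0.0488 of the basal keratinocyte sum in WT and 0.462% ± 0.134 in TG, and 0.250% ± 0.0197 and 0.277% ± 0.125 of the sum of 8 suprabasal keratinocyte markers (7573 to 9004 CPM in WT, 9062 to 15634 CPM in TG, Flg2 the highest). None of these markers was called by edgeR's quasi-likelihood test (2 at an unadjusted p under 0.05), and 2 were called by the likelihood-ratio test, 2 by DESeq2 and 2 without TG2. Has2 was 0.0733% ± 0.0151 in WT and 0.0726% ± 0.0171 in TG of the sum of 8 fibroblast markers (9521 to 12891 CPM in WT, 12354 to 16058 CPM in TG, overlapping, Col3a1 the highest). None of these was called by edgeR's quasi-likelihood test (5 at an unadjusted p under 0.05) or the likelihood-ratio test, and 3 by DESeq2. The pairing of genes with lists in these 7 ratios was chosen after the values were seen, and no test was made of them.

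The remaining marker lists were not paired with a member. Stress keratinocyte markers had 3 of 8 called higher (1223 to 1625 CPM in WT, 1348 to 2546 CPM in TG), with 1 called without TG1 and 6 by the likelihood-ratio test and by DESeq2. Krt17, the highest of them, was lower in every TG library, at 1068 CPM in WT and 692 CPM in TG (log2 fold change -0.63, FDR 0.128, edgeR's quasi-likelihood test). All 8 hair markers, with Tchh the highest, were lower in every TG library, which held for 18.2% of all tested genes. None of them was called by edgeR's quasi-likelihood test or DESeq2 (7 at an unadjusted p under 0.05), while 7 were called by the likelihood-ratio test and 7 without TG2. The 5 tested T cell markers, with Cd3g the highest, the 7 skeletal muscle markers, with Myh4, and the 6 adipocyte markers, with Fabp4, had none called by edgeR's quasi-likelihood test (1, 0 and 0 at an unadjusted p under 0.05). The likelihood-ratio test called 1 T cell marker and none of the other 2 lists, and DESeq2 none. The sums, for T cells over all 7 markers of the list, ran from 8.43 to 10.9 CPM, 1268 to 6778 CPM and 803 to 1083 CPM in WT, and from 10.01 to 12.5 CPM, 1152 to 3189 CPM and 750.0 to 1114 CPM in TG.

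For each member, the 3 genes with the most similar course over the 6 libraries were found by Pearson's r of log2 CPM, as a description of 6 points that share their scaling. Has3 was followed by Hif1a (r = 0.989), Pla2g7 (0.977) and Sp140 (0.976), and Has2 by Noa1 (0.992), Asns (0.992) and Miip (0.985). Has1 was followed by Rspo1, Slk and Nfya, Hyal1 by Ppp1r3b, Gsdma3 and Gm12981, Hyal2 by A430078G23Rik, Zmynd11 and Trmt13, and Tmem2 by Scn2b, Hsph1 and Wsb2. Cd44 was followed by Tnfaip1, Kctd12 and Traf3ip2, and Lyve1 by Dym, Gpc1 and Zswim7. With so few points high values are common, and 20 genes (Tmem2) to 274 genes (Cd44) had an r above 0.95 with a member.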

How the data were processed

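RNA from whole skin of 3 WT and 3 TG mice was sequenced as 75-base paired reads. The authors aligned them to GRCm38 with Tophat2 (version 2.0.12 in the submitters' processing notes, an earlier one in the paper's methods) and Bowtie2 2.1.0 and deposited whole-number counts per Ensembl gene from HTSeq. The annotation release and strand setting are not given in the sources used here. Of 26579 identifiers, 26021 matched GENCODE M21, which gave names, exons and lengths.

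From the counts, a gene was kept where 3 or more libraries reached 1 CPM, and libraries were scaled by TMM, as in the study's methods. Genotype was tested by the quasi-likelihood test of edgeR 4.0.16 (R 4.3.3) with common and tagwise dispersions, in place of the likelihood-ratio test and voom of the study, which were run as alternatives (limma 3.58.1, DESeq2 1.42.0). The scripts were checked on simulated counts. Log2 CPM for correlations used a prior count of 2. The libraries held 11225705 to 19505036 counts, and Has1 had the fewest of the members, 12 to 30 per library.

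Named were the 8 members, every pathway gene that passed, the 2 genes of lowest p per pathway list, the 3 genes most like each member, and the highest gene of each marker list. Outside this rule, Yap1 was named as the transgene's own gene, and genes that overlap a member because of that overlap. Prox1, Flt4, Folr2, Trp63, Rdx, Spp1 and Mmp14 were named after their values were seen. The members and all gene lists were chosen with earlier results of these data known. RefSeq promoters (GRCm38.p6) were searched as letters.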

Additional observations from a re-analysis of the deposited data

How the results depend on the processing

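The number of genes called was 288 in the reported fit, 357 with DESeq2's size factors in edgeR, 306 with at least 10 counts in every sample, 335 with the earlier quasi-likelihood form and trended dispersion (added after seeing the data) and 249 with voom, but 497 without the filter, 1568 with the likelihood-ratio test and 1590 with DESeq2. Leaving out 1 library gave 0 to 817 genes, with 0 without WT2, WT3 or TG3 (2726, 2844 and 3691 at an unadjusted p under 0.05), 142 without WT1, 83 without TG1 and 817 without TG2. The share higher in TG was 75.7%, but 53.1% with the likelihood-ratio test, 60.3% with DESeq2, 86.6% without WT1, 88% without TG1 and 49.9% without TG2. Of the 8 members, 0 were called, and 1, Has3, with the likelihood-ratio test, with DESeq2 and without TG2 (0 to 1 over the single-library fits). Of the 30 pathway genes, 1 was called, 3 with the likelihood-ratio test and 6 with DESeq2, beside 1.91%, 10.4% and 10.5% of all tested genes. The count of pathway genes called was 0 to 2 when single libraries were left out. The deviations of same-numbered mice from their group means had correlations of -0.332, -0.228 and -0.0501, and crossed numbers had -0.0650 to 0.269. With 3 mice per genotype these values cannot tell whether same-numbered mice were paired. With the replicate number as a block, 0 genes, 0 members and 0 pathway genes were called by edgeR's quasi-likelihood test (2949 genes at an unadjusted p under 0.05). Has3 was then at a log2 fold change of 0.49. Has1 ranged from -0.02 to 0.51 when single libraries were left out. Of 118 refits of a member's fold change, 112 kept direction and call, 4 brought Has3 past the threshold, and 2 turned Has1, to -0.0233 without WT2 and -0.000289 without TG2. Has3 itself passed the likelihood-ratio test in 1 of its 6 single-library fits, that without TG2 (added after seeing the data). Levels per kb followed the length used. With the longest transcript they were 0.388 for Has1 in TG, 3.52 for Has3 in WT, 4.41 and 4.16 for Hyal1, 10.5 and 10.2 for Hyal2, 7.62 and 7.12 for Tmem2 and 45.8 and 50.1 for Cd44 in WT and TG. With exon bases shared with no other gene (added after seeing the data) they were 3.45 for Has3 in WT and 7.33 and 6.91 for Hyal1. Without TMM scaling Hyal2 in TG was 9.26. The other 34 levels moved by less than 1 SD. The counts of Has1 were low, at 12 to 30 per library, and the share of counting error in its interval was not tested.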
